A study of Macaca mulatta with 10 samples.

Results

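IVDS3 cells were compared with cells from the centre of colonies at the preceding stage, IVDS2-C, to ask which genes the later stage gained or lost beyond the programme of the colony centre. The samples were chosen by their titles, which gave 4 of the 10 arrays of the series, 2 from IVDS3 and 2 from IVDS2-C. All came from ORMES6, a rhesus macaque line of embryonic stem (ES) cells, and expression was read on Affymetrix rhesus macaque arrays. IVDS stands for in vitro differentiation stage, so IVDS3 is stage 3, and IVDS2-C is the central area of colonies at stage 2. The other arrays, 2 each of unselected IVDS2 cells, the colony periphery at that stage (IVDS2-P) and ES cells, entered the fit to estimate the spread between arrays. The labels name no area of the colony for IVDS3 and no day or extra agent for any stage. The same protocols stand in the labels of all 5 groups: growth on mouse embryonic fibroblast feeders in medium with a serum replacement and the growth factor bFGF, then hepatic foci brought out in the presence of hESdF, which are human ES-derived fibroblast-like cells. A group is therefore a state of 1 cell line, and RNA of feeder or co-culture cells can be part of a sample.

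Hepatocytes arise from the definitive endoderm, which needs the loss of the pluripotent state, passage through a fetal liver programme and, later, the enzymes of drug and urea metabolism. Stratified epithelia such as epidermis and the lining of mouth and oesophagus come from surface ectoderm. Their basal cells divide, then leave the cell cycle and switch on keratins, desmosomes and the proteins of the cornified envelope as they mature. Interferons are secreted when a cell senses foreign nucleic acid, and they switch on a shared set of antiviral genes and the genes of antigen presentation.

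The deposited values, whose log base is not stated, were taken as log2. They were centred on each probe set's median over the 10 arrays, so a value of 0 marks that median and not an absent transcript. Genes cannot be ranked by their level on this scale. The small number of arrays limits the precision, and the labels do not say whether the 2 arrays of a group come from separate cultures, and the p-values rest on a spread that may be technical. Between the arrays of a group, gene values differed with a standard deviation of 0.24 in IVDS3, 0.29 in IVDS2-C and 0.27 to 0.40 in the other groups. The centre arrays were not alike. At the 2780 genes called higher in IVDS3 than in ES cells (21.1% of all genes), IVDS2-C replicate 2 read above replicate 1 at 73.5%, and at the 3777 genes called lower (28.6%) it read below replicate 1 at 80.0%. The median gap was 0.13 and -0.15, against -0.04 and 0.03 between the IVDS3 arrays. Values are therefore given for each centre array at many genes, and for many lists counts are also given without single arrays. A list shown without such counts is not thereby stable. Leaving out an IVDS3 or IVDS2-C array leaves a single array in its group, and it lowered the number of calls over all genes. A lower list count in such a fit need not be particular to that list.

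IVDS3 and the colony centre differed widely and evenly in both directions, but the rises were much larger than the falls. Of 13191 genes, limma called 1441 higher and 1442 lower in IVDS3 (10.9% of the genes each way, adjusted p under 0.05). The counts of every gene list and marker set below are to be read beside these shares. At least a 2-fold difference was reached by 653 of the higher genes (4.95% of all genes) and 469 of the lower ones (3.56%). At least a 4-fold difference was reached by 225 higher and 56 lower genes, and at least a 16-fold difference by 32 higher and 0 lower ones. The 2 IVDS3 arrays lay beyond both IVDS2-C arrays at each of the 2883 called genes, but they did so at 65.2% of all genes. The same fit over 44210 probe sets called 6594 (14.9%), of which 3424 were higher (7.74%) and 3170 lower (7.17%). The count of called genes depended on single arrays: leaving out IVDS3 replicate 1 gave 1473, IVDS2-C replicate 1 gave 1482 and IVDS3 replicate 2 gave 1803.

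**Figure D1:**
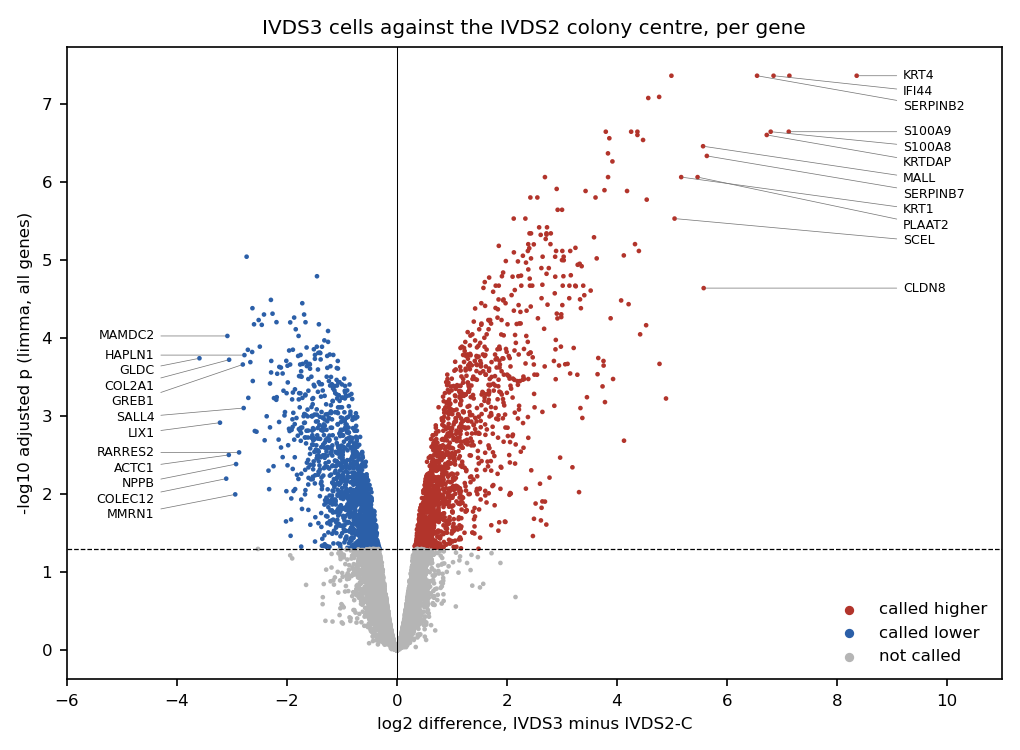
Each point is 1 of 13191 genes, with the log2 difference IVDS3 minus IVDS2-C on the horizontal axis and -log10 of the adjusted p on the vertical axis, and the dashed line marks an adjusted p of 0.05. The 12 largest named rises and falls are labelled, and the rises reach 8.36 while the falls end at -3.59.

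The largest rise was that of KRT4, a keratin of the suprabasal cells of mucosal epithelium. Its values were 8.72 and 8.33 on the IVDS3 arrays, against 0.02 and 0.32 on the IVDS2-C arrays, a log2 difference of 8.36 ± 0.20 (SE, n = 2 arrays a group), or 328-fold (adjusted p = 4.31e-08). The centre arrays lay close to the median of all arrays. S100A9, a calcium-binding alarmin of stressed and stratified epithelium and of myeloid cells, read 7.66 and 7.30 in IVDS3, against 0.08 and 0.63 in IVDS2-C (7.12 ± 0.22). Its partner S100A8 read 6.96 and 6.17 in IVDS3, against -0.20 and -0.26 in IVDS2-C (6.8 ± 0.22). KRTDAP, a secreted protein of differentiating keratinocytes, read 6.88 and 6.07 in IVDS3, against -0.23 and -0.27 in IVDS2-C (6.72 ± 0.22). In all of these the IVDS3 arrays lay far above both centre arrays. The protease inhibitors SERPINB2 and SERPINB7, both made by keratinocytes, rose by 6.55 ± 0.16 and 5.64 ± 0.21. MALL, a proteolipid of membrane rafts, rose by 5.57 ± 0.20, and PLAAT2, a phospholipid acyltransferase, by 5.47 ± 0.22. SCEL, a precursor of the cornified envelope, rose by 5.05 ± 0.25 as the mean of 3 probe sets, which ranged from 2.81 to 6.43. The adjusted p of these genes was at most 2.92e-06, and each call held without any 1 of the 10 arrays.

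Interferon-induced effectors were higher in IVDS3. All 20 measured members of the list of interferon-induced effectors rose (10.9% of all genes rose), with a median log2 difference of 2.63 and a range of 1.17 to 6.85, against a median of -0.03 over all genes. IFI44, an interferon-induced cytoplasmic protein, read 7.10 and 6.79 in IVDS3, against -0.07 and 0.26 in IVDS2-C, a difference of 6.85 ± 0.15 (115-fold, adjusted p = 4.31e-08). Both centre arrays were at the median for this gene. OAS2, a synthetase whose product activates the antiviral ribonuclease RNase L, read 6.38 and 6.23 in IVDS3, against 0.17 and 2.65 in IVDS2-C (4.89 ± 0.61, adjusted p = 0.000591). MX2, a dynamin-like GTPase that restricts viruses, read 5.05 and 5.0 in IVDS3, against 0.20 and 1.42 in IVDS2-C (4.21 ± 0.32). SAMD9L, an antiviral and growth-restraining factor, read 5.08 and 5.17 in IVDS3, against 0.84 and 2.66 in IVDS2-C (3.37 ± 0.47). The IVDS3 arrays agreed closely, while the centre array numbered 2 was partly raised at these 3 genes and replicate 1 was not.

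The centre arrays also differed in the mean over the list. That mean, over 20 genes, was 4.38 and 4.24 on the IVDS3 arrays, against 0.65 and 2.10 on the IVDS2-C arrays. Between the arrays numbered 1 the median difference was 3.68, and between those numbered 2 it was 1.79. Without IVDS2-C replicate 1 the median over the list was 1.90, and without IVDS3 replicate 1 or 2 it was 2.51 or 2.68. Not every member kept its call in the fits without an IVDS3 array. UBE2L6, the enzyme that carries the ubiquitin-like modifier ISG15 to its targets, rose by 3.59 ± 0.19, and its centre value was under that of ES cells (-1.98).

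Among the receptors that sense foreign RNA 3 rose and DHX58, known as LGP2, was not called (-0.38 ± 0.18, adjusted p = 0.177). In the list of interferon sensing and signalling, 8 of 16 measured members rose and 1 fell (median 0.44), and 4 rose without IVDS3 replicate 1. IFIH1, the cytosolic sensor of long double-stranded RNA known as MDA5, read 4.89 and 4.64 in IVDS3, against 0.02 and 0.84 in IVDS2-C (4.33 ± 0.24, adjusted p = 6.21e-06). RIGI, the sensor of RNA with a free triphosphate end, read 4.84 and 4.41 in IVDS3, against 0.33 and 2.53 in IVDS2-C (3.19 ± 0.58, adjusted p = 0.00451). TLR3, the endosomal receptor for double-stranded RNA, read 3.32 and 2.78 in IVDS3, against 0.00 and 0.34 in IVDS2-C (2.88 ± 0.19). IFIH1, RIGI and TLR3 were higher on both IVDS3 arrays than on either centre array. IRF7, a transcription factor for type I interferon genes, rose by 1.03 ± 0.19, but its 2 probe sets disagreed (-0.13 and 2.19). IRF3 (0.22) and IRF1 (0.05), which act at other steps of the same response, were not called. The receptor subunit IFNAR2 fell by 0.55 ± 0.13, a call lost without IVDS2-C replicate 2 or without IVDS3 replicate 1.

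Class I antigen presentation was higher as well. Of 17 measured genes 12 rose and 0 fell, with a median of 0.74 (0.90 and 0.58 between arrays of the same number) and with 8 to 12 called when any 1 of the 4 arrays was left out. PSMB8, a catalytic subunit of the immunoproteasome, read 3.39 and 3.47 in IVDS3, against 0.05 and 1.04 in IVDS2-C (2.88 ± 0.27). B2M, the light chain of class I molecules, read 2.67 and 2.60 in IVDS3, against -0.10 and 1.15 in IVDS2-C (2.11 ± 0.32). TAP1, which pumps peptides to them, rose by 2.06 ± 0.36, and the class I heavy chain MAMU-E by 2.65 ± 0.35, although macaque class I genes are so alike that their probe sets can read each other's transcripts. The class II transactivator CIITA (-0.05) and the class II chaperone CD74 (-0.09) were not called.

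Cytokine genes went both ways. In the list of chemokines and cytokines, 6 of 20 rose and 3 fell (median -0.05), and 3 rose without IVDS3 replicate 1 or without IVDS2-C replicate 1. IL1RN, which blocks the interleukin 1 receptor, read 5.05 and 4.8 in IVDS3, against 0.10 and 0.96 in IVDS2-C (4.40 ± 0.25). IL33, a nuclear alarmin of barrier epithelium, read 3.21 and 2.74 in IVDS3, against 0.02 and 0.14 in IVDS2-C (2.90 ± 0.17). The chemokine CXCL11, an interferon target, rose by 1.67 ± 0.20, while its relative CXCL10 was not called (0.51 ± 0.66). The 3 genes that fell were inflammatory cytokines. IL6 read -0.08 and -0.10 in IVDS3, against 2.06 and 2.13 in IVDS2-C (-2.19 ± 0.18). CXCL8, the chemokine interleukin 8, read 0.76 and 0.73 in IVDS3, against 2.26 and 3.89 in IVDS2-C (-2.33 ± 0.43). IL1B read 0.01 and -0.06 in IVDS3, against 1.5 and 1.82 in IVDS2-C (-1.68 ± 0.13). Both centre arrays stood above the median at these 3 genes. The IVDS3 arrays lay near it at IL6 and IL1B and above it at CXCL8.

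**Figure D2:**
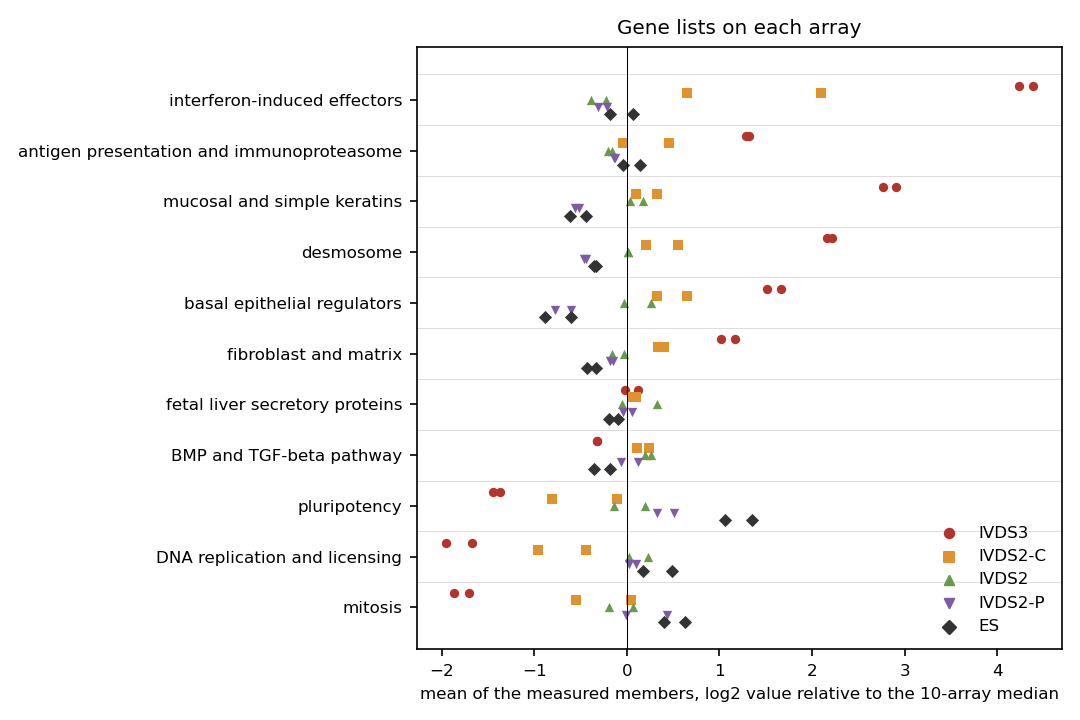
The mean of the measured members of 11 gene lists is shown for each of the 10 arrays, in log2 units relative to the 10-array median, with 2 points a group. For interferon-induced effectors the IVDS3 arrays stand at 4.38 and 4.24 and the IVDS2-C arrays at 0.65 and 2.10, while for mitosis the IVDS3 arrays stand at -1.87 and -1.71 and the IVDS2-C arrays at 0.04 and -0.55.

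Genes of stratified epithelium formed the other large gain. In the list of mucosal and simple keratins, 6 of 9 measured genes rose and 1 fell, with a median of 1.28. Beside KRT4, the keratins KRT23 (4.99 ± 0.12) and KRT24 (4.77 ± 0.13) rose over 25-fold. KRT13, the partner of KRT4 in mucosal epithelium, read 3.68 and 2.96 in IVDS3, against -0.12 and 0.00 in IVDS2-C (3.39 ± 0.23, adjusted p = 2.12e-05). KRT19, a keratin of simple epithelium and of bile ducts, rose by 1.28 ± 0.20. KRT8, the main keratin of simple epithelium, was not called (0.09), and its partner KRT18 fell by 0.55 ± 0.15, a call lost without IVDS3 replicate 2 or without either IVDS2-C array. KRT4, KRT13, KRT23 and KRT24 all lay within 0.5 of the 10-array median on both centre arrays.

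Desmosomes, the junctions that anchor keratin filaments between cells, were higher almost throughout. Of 12 measured genes 11 rose and 0 fell, with a median of 1.75 (1.89 and 1.60 between arrays of the same number) and 9 or 10 called without any 1 of the 4 arrays. DSG3, the cadherin of basal and mucosal layers, read 5.93 and 5.66 in IVDS3, against 1.37 and 2.93 in IVDS2-C (3.65 ± 0.40). DSG1, the cadherin of the upper epidermal layers, read 3.81 and 2.93 in IVDS3, against -0.24 and -0.06 in IVDS2-C (3.52 ± 0.25). DSC3 rose by 2.72 ± 0.18, as the mean of 2 probe sets at 1.18 and 4.27. DSG3 was thus already above the median in the centre, whereas DSG1 was not. DSG2, the cadherin that simple epithelium also carries, was not called (0.04).

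Cornified and suprabasal genes were split. In that list 12 of 23 measured genes rose and 0 fell, with a median of 0.54. KRT1, the keratin of suprabasal epidermis, read 5.67 and 5.43 in IVDS3, against 0.06 and 0.71 in IVDS2-C (5.17 ± 0.21, 36.0-fold). CSTA, a protease inhibitor of the cornified envelope, read 5.43 and 5.39 in IVDS3, against 0.23 and 1.53 in IVDS2-C (4.53 ± 0.38). Envelope precursors also rose, SPRR1B by 4.19 and IVL, which encodes involucrin, by 2.98. Smaller rises were those of SPINK5, a protease inhibitor of the upper epidermis (1.83), the crosslinking enzyme TGM1 (0.60) and the protease KLK8 (0.54). The other 11 measured members, among them the cornified envelope protein LORICRIN (0.14), KRT2 (0.03) and TGM3 (-0.02), were not called.

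The list of basal epithelial regulators, which also holds structural genes and factors of differentiated epithelium, gave 8 of 14 higher and 0 lower (median 0.79). KRT16, a keratin of activated keratinocytes, rose by 2.42 ± 0.17, although its 4 probe sets ranged from -0.50 to 4.26. KLF4, a transcription factor for barrier formation, read 2.56 and 2.11 in IVDS3, against -0.25 and 0.13 in IVDS2-C (2.39 ± 0.27). SFN, the 14-3-3 protein of keratinocytes, read 3.80 and 3.43 in IVDS3, against 1.02 and 2.17 in IVDS2-C (2.02 ± 0.31). EHF, an ETS factor of differentiated epithelium, rose by 1.80 ± 0.23. TP63, the master regulator of basal cells, behaved otherwise. It read 0.52 and 0.79 in IVDS3, against 0.77 and 0.91 in IVDS2-C (-0.19 ± 0.14, adjusted p = 0.394), while it stood 3.20 higher in the centre than in ES cells.

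Tight junction genes were mixed, with 7 of 24 measured genes higher and 3 lower (median 0.21), and 1 lower without IVDS3 replicate 1 or without IVDS2-C replicate 1. CLDN8, a claudin of tight epithelia, read 7.42 and 7.15 in IVDS3, against 0.97 and 2.44 in IVDS2-C (5.58 ± 0.39). CLDN1, the claudin of the epidermal barrier, rose by 2.30 ± 0.37. CLDN6, a claudin of embryonic epithelium and pluripotent cells, read -1.79 and -1.03 in IVDS3, against -0.06 and 0.25 in IVDS2-C (-1.5 ± 0.23). CDH1, which encodes E-cadherin, read 0.59 and 1.00 in IVDS3, against -0.04 and 0.15 in IVDS2-C and was not called (0.74 ± 0.24, adjusted p = 0.0565).

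The EGF receptor family and its ligands drive growth and migration of keratinocytes. Of 11 measured genes of that list 5 rose, the ligands EGF, BTC and TGFA (0.69 ± 0.17) and the receptors ERBB2 (0.61 ± 0.13) and ERBB3, and 0 fell (median 0.69). Leaving out IVDS2-C replicate 1 left 3. The ligands AREG (0.70 ± 0.69), HBEGF (-0.27 ± 0.18) and NRG1 (-0.24 ± 0.14) were not called. EGF itself read 4.33 and 4.10 in IVDS3, against -0.30 and -0.02 in IVDS2-C (4.37 ± 0.15, 20.7-fold). BTC, which encodes betacellulin, read 2.77 and 2.25 in IVDS3, against 0.04 and 0.06 in IVDS2-C (2.46 ± 0.17). The receptor ERBB3 rose by 1.28 ± 0.19, with 4 probe sets from 0.20 to 2.32.

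**Figure D3:**
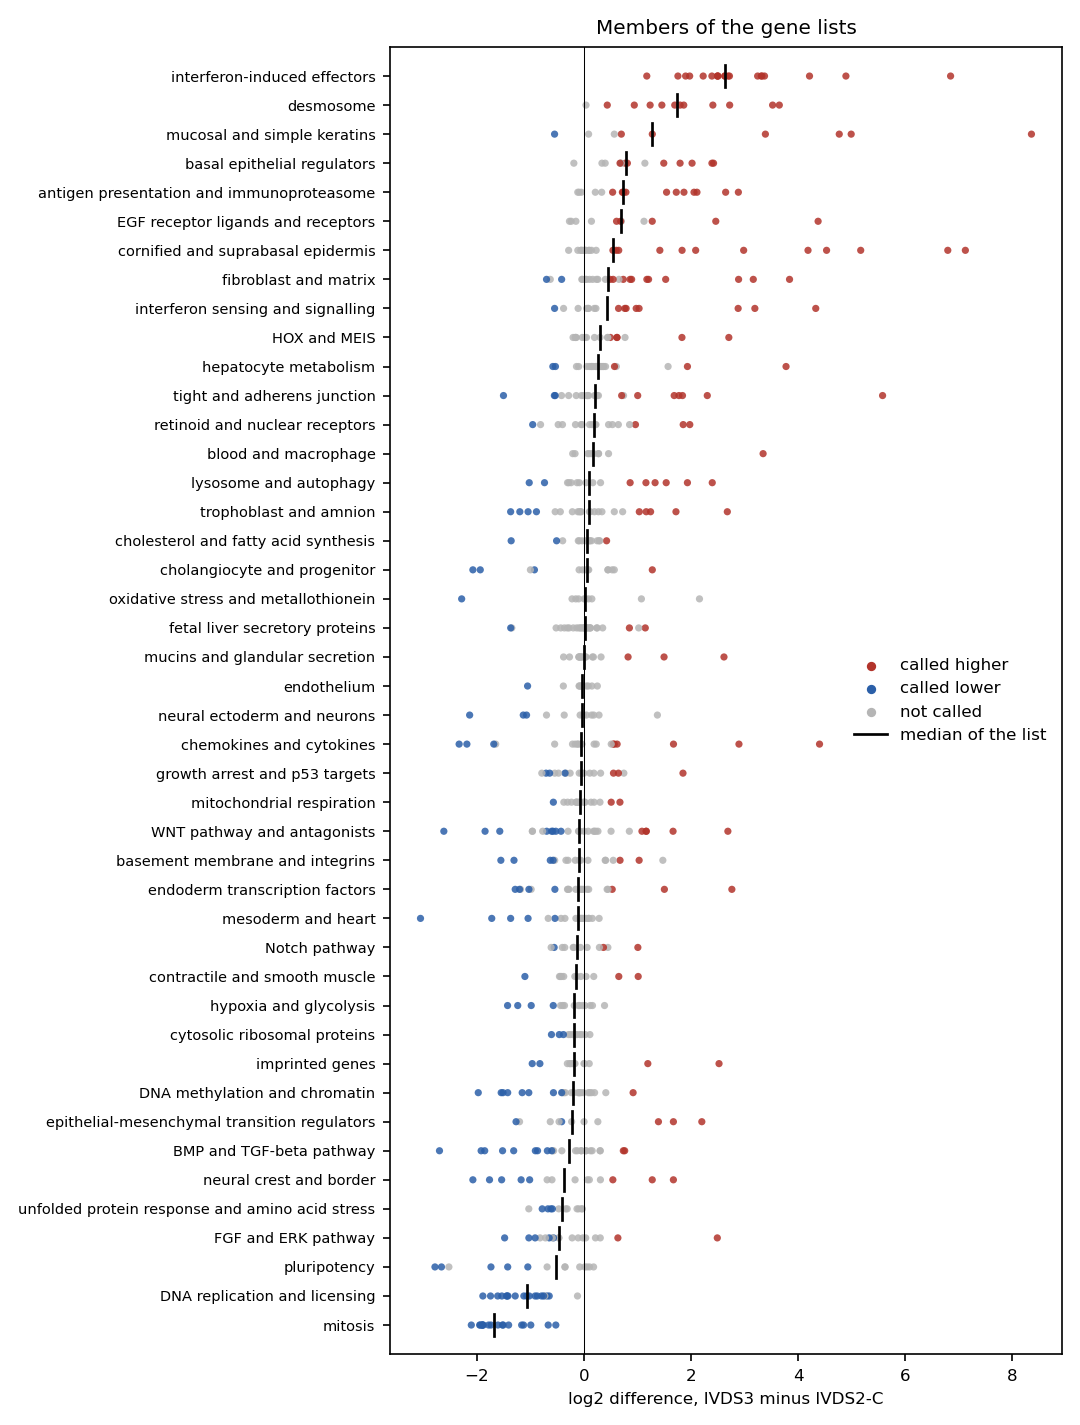
Each row is a gene list and each point a measured member, placed by its log2 difference IVDS3 minus IVDS2-C, with called genes in colour and the list median as a bar. Medians run from 2.63 for interferon-induced effectors down to -1.67 for mitosis.

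Cell division genes were lower in IVDS3. All 18 measured mitosis genes fell, with a median of -1.67 (-2.05 and -1.22 between arrays of the same number), while 10.9% of all genes fell. Without any 1 of the 4 arrays 13 to 17 of them were called. CCNB2, a cyclin that drives entry into mitosis, read -2.55 and -2.32 in IVDS3, against 0.10 and -0.76 in IVDS2-C (-2.10 ± 0.34, adjusted p = 0.00251). NUF2, a kinetochore protein, read -2.21 and -2.23 in IVDS3, against -0.08 and -0.49 in IVDS2-C (-1.94 ± 0.20). NCAPG, a condensin subunit, fell by 1.95 ± 0.29 and CCNB1 by 1.90 ± 0.24. Both centre arrays lay above both IVDS3 arrays at these genes, and replicate 2 of the centre was the nearer to IVDS3. MKI67, a common marker of cycling cells, read -1.48 and -1.46 in IVDS3, against -0.05 and -0.66 in IVDS2-C (-1.12 ± 0.25), a call lost without either IVDS3 array or without IVDS2-C replicate 1.

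In the list of DNA replication and licensing, 17 of 19 measured genes fell and 0 rose, with a median of -1.07. The count was 10 without IVDS2-C replicate 1 and 11 without IVDS3 replicate 1. MCM3, a subunit of the replicative helicase, read -3.17 and -2.82 in IVDS3, against -0.75 and -1.47 in IVDS2-C (-1.89 ± 0.23). MCM10 (-1.74 ± 0.27), CDC6 (-1.61 ± 0.28), which loads the helicase, and MCM2 (-1.53 ± 0.23) fell too. The exceptions were RFC3 (-0.12) and GINS3 (-0.73), which were not called. CDKN1A, the cyclin-dependent kinase inhibitor p21, read 3.61 and 3.29 in IVDS3, against 1.38 and 1.82 in IVDS2-C (1.85 ± 0.21, 3.61-fold). It was the only p53 target of the list of growth arrest genes with a rise over 2-fold. Of the 19 genes 3 rose and 3 fell (median -0.05), where 10.9% of all genes went each way. Leaving out IVDS3 replicate 1 gave 1 rise and 1 fall, IVDS2-C replicate 1 gave 2 and 0, and IVDS3 replicate 2 gave 3 and 0.

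Of 14 measured pluripotency genes, 8 were called lower and 1 higher in the centre than in ES cells. Over all genes 16.5% were lower and 13.7% higher in that comparison. Between IVDS3 and the centre 5 of the 14 fell and 0 rose (median -0.52). The median was -0.52 without IVDS3 replicate 1 and -0.26 without IVDS2-C replicate 1. In neither of these fits did all 5 genes keep their call. POU5F1, which encodes OCT4, read -4.55 and -4.37 in IVDS3, against -0.50 and -3.38 in IVDS2-C. The centre arrays thus spanned most of the gap, and the gene was not called (-2.52 ± 0.79, adjusted p = 0.0501). SALL4, a zinc finger partner of OCT4, read -3.95 and -3.79 in IVDS3, against -0.70 and -1.48 in IVDS2-C (-2.78 ± 0.36, adjusted p = 0.000784). LIN28B, which blocks let-7 microRNA maturation, read -3.64 and -2.87 in IVDS3, against -0.29 and -0.91 in IVDS2-C (-2.66 ± 0.27). SOX2 fell by 1.05 ± 0.21, a call lost without IVDS2-C replicate 1 or IVDS3 replicate 1. NANOG, measured by 1 probe set, read 0.47 and 0.41 in IVDS3, against 0.16 and 0.36 in IVDS2-C and was not called (0.18 ± 0.19). The labels give the cell type of all samples as ES cells, while these genes place the IVDS3 arrays well under the median of the series at POU5F1, SALL4 and LIN28B.

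In the list of DNA methylation and chromatin, 8 of 24 measured genes fell, 1 rose and the other 15 were not called (median -0.21). TET1, which oxidises methylated cytosine, read -2.84 and -2.65 in IVDS3, against -0.24 and -1.30 in IVDS2-C (-1.97 ± 0.32). HELLS, a remodeller needed for DNA methylation, fell by 1.55 ± 0.21 and UHRF1, which guides maintenance methylation to replicated DNA, by 1.51 ± 0.27. The de novo methyltransferase DNMT3B fell by 1.42 ± 0.37, a call lost without either IVDS3 array or without IVDS2-C replicate 1.

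**Figure D4:**
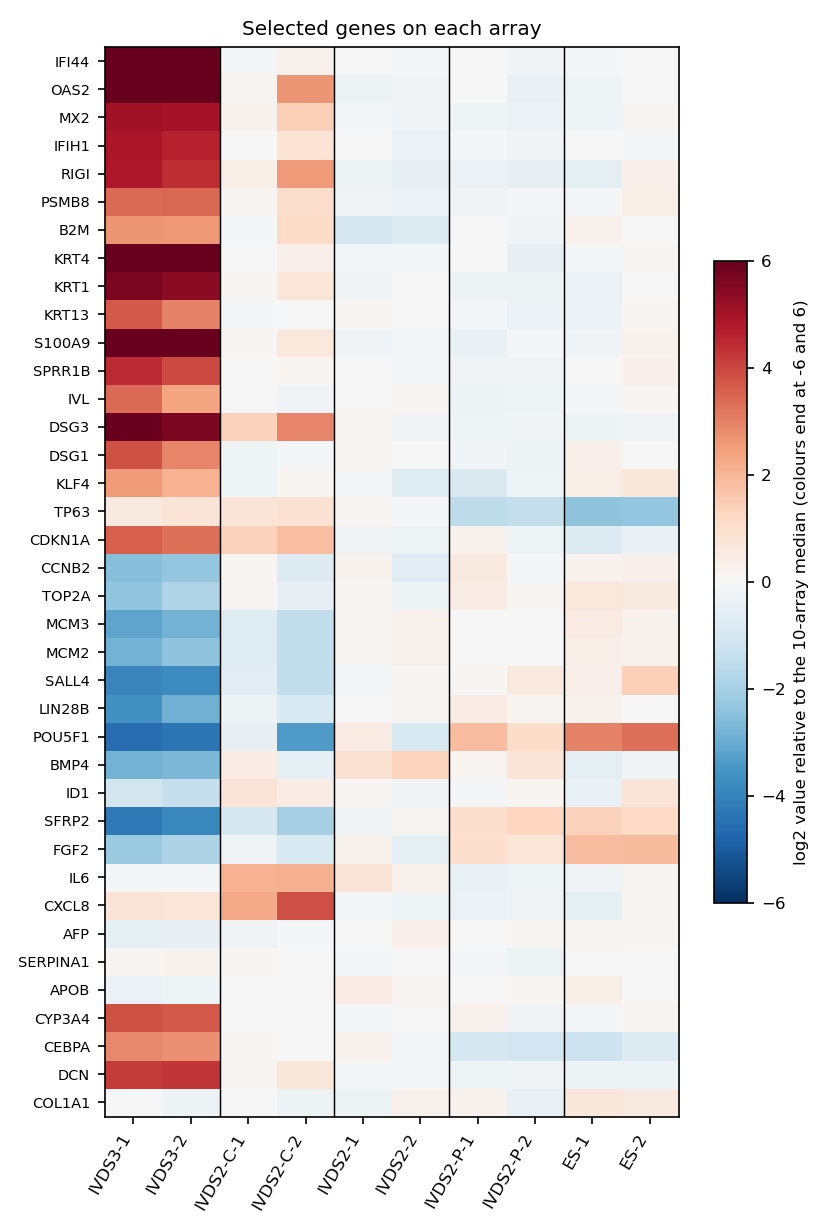
The values of 38 genes, picked after their values were seen to show each gene group, are coloured by log2 value relative to the 10-array median, with the IVDS3 arrays at the left and the IVDS2-C arrays next to them. IFI44, KRT4 and S100A9 are highest on the IVDS3 arrays, whereas IL6 and CXCL8 are highest on the IVDS2-C arrays.

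Signalling lists of the early embryo held falls and rises, and most of their members were not called. In the BMP and TGF-beta list, 9 of 24 measured genes fell and 2 rose (median -0.28), and 5 fell without either IVDS3 array or without IVDS2-C replicate 1. BMP4, a ligand that patterns early ectoderm and mesoderm, read -2.85 and -2.69 in IVDS3, against 0.46 and -0.61 in IVDS2-C (-2.70 ± 0.33). ID1, a direct target of BMP signalling, read -1.09 and -1.39 in IVDS3, against 0.77 and 0.46 in IVDS2-C (-1.85 ± 0.32). BAMBI, a decoy receptor that BMP also switches on, read -0.27 and 0.07 in IVDS3, against 1.29 and 1.54 in IVDS2-C (-1.52 ± 0.28). BMP4, ID1 and BAMBI were therefore lower on both IVDS3 arrays than on either centre array. The activin antagonist FST fell by 1.92 ± 0.48, a call lost without either IVDS3 array or without IVDS2-C replicate 1.

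In the FGF and ERK list, 5 of 18 measured genes fell and 2 rose (median -0.47). The number that fell was 3 without IVDS3 replicate 1 or IVDS2-C replicate 1, 2 without IVDS3 replicate 2, and 10 with only the 4 arrays compared in the fit. FGF2, the bFGF that sustains primate ES cells, read -2.25 and -1.83 in IVDS3, against -0.22 and -0.90 in IVDS2-C (-1.48 ± 0.28), a call lost without IVDS3 replicate 1. Its receptor FGFR1 fell by 1.03 ± 0.15, while FGFBP1, a carrier that frees FGFs from the matrix in epithelium, rose by 2.49 ± 0.26.

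WNT genes changed in both directions, with 5 of 28 higher and 8 lower (median -0.09). Leaving out IVDS2-C replicate 1 gave 2 and 4, IVDS3 replicate 1 gave 3 and 5, and IVDS3 replicate 2 gave 3 and 4. The secreted antagonist SFRP2 read -4.29 and -3.88 in IVDS3, against -0.96 and -1.99 in IVDS2-C (-2.62 ± 0.29), and the receptor FZD7 fell by 1.57 ± 0.26. The ligands WNT3, at 2.92 and 3.13 in IVDS3 against -0.14 and 0.82 in IVDS2-C (2.69 ± 0.28), and WNT7A (1.66 ± 0.14) rose.

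Regulators of the neural plate border were divided. Of 14 measured genes of neural crest and border, 5 fell and 3 rose (median -0.38). Leaving out IVDS3 replicate 1 gave 3 falls and 1 rise, and IVDS2-C replicate 1 gave 3 falls and 2 rises. SOX9, a factor of neural crest, cartilage and bile duct cells, read -1.08 and -1.39 in IVDS3, against 0.68 and 1.00 in IVDS2-C (-2.07 ± 0.22). MSX1 (-1.76 ± 0.23) and MSX2 (-1.54 ± 0.25), homeobox targets of BMP, fell as well. LMX1A, a homeobox gene of the dorsal neural tube, fell by 2.13 ± 0.22. TWIST1, a factor of mesenchyme, rose by 1.67 ± 0.35, a call lost without IVDS3 replicate 1.

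The largest fall was that of GLDC, a subunit of the mitochondrial glycine cleavage system, with -4.25 and -2.95 in IVDS3, against 0.11 and -0.14 in IVDS2-C (-3.59 ± 0.36, adjusted p = 0.00018). LIX1 read -3.86 and -3.79 in IVDS3, against -0.06 and -1.16 in IVDS2-C (-3.21 ± 0.45). Both genes lay near the median on IVDS2-C replicate 1 and well below it on both IVDS3 arrays. COL2A1, the cartilage collagen, read -2.65 and -2.02 in IVDS3, against 0.71 and 0.71 in IVDS2-C (-3.05 ± 0.30). ACTC1, cardiac muscle actin, read -4.14 and -2.83 in IVDS3, against -0.22 and -0.64 in IVDS2-C (-3.05 ± 0.52). NPPB, the natriuretic peptide of heart muscle, fell by 2.92 ± 0.52, and RARRES2, which encodes the adipokine chemerin, by 2.87 ± 0.48. The scavenger receptor COLEC12 (-3.10 ± 0.60), the matrix gene MAMDC2 (-3.08 ± 0.27) and GREB1 (-2.80 ± 0.29) fell too. MMRN1, multimerin of platelets and endothelium, fell by 2.94 ± 0.63, a call lost without IVDS3 replicate 2 or IVDS2-C replicate 1. The mesoderm and heart list as a whole had 5 of 18 measured genes lower and 0 higher (median -0.12), with 2 lower without IVDS3 replicate 1 and 3 without IVDS2-C replicate 1.

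Setting the difference between IVDS3 and the centre beside that between the centre and ES cells shows which genes were gained late and which continued a course. These comparisons share the IVDS2-C arrays, so a high reading there raises the earlier difference and lowers the later one, and no count over both is given. Against ES cells the centre had 13.7% of genes called higher and 16.5% called lower, and against the periphery 5.64% and 3.95%. KRT4 (0.21 from ES cells to the centre), S100A9 (0.37), IFI44 (0.15) and MLANA, a melanosome protein (0.23, then 4.57 ± 0.12 from the centre to IVDS3), are examples of genes that lay within 0.5 of ES cells in the centre and were called higher in IVDS3. The 4 probe sets of MLANA ranged from -0.28 to 6.88. RNF128, a ubiquitin ligase, was another (-0.18, then 4.78 ± 0.49).

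Other genes rose in both steps. CLDN8 was 1.98 higher in the centre than in ES cells and 5.58 higher in IVDS3 than in the centre. GJB6, a connexin of keratinocytes, gave 2.09 and then 4.54 ± 0.21, TMPRSS11E, a protease of squamous epithelium, 1.70 and then 4.42 ± 0.39, and AQP3, the water and glycerol channel of keratinocytes, 1.21 and then 3.76 ± 0.38. The carboxypeptidase CPA4 (1.56, then 3.89 ± 0.31), the adaptor BLNK (3.17, then 3.76 ± 0.39) and the acyl-CoA synthetase ACSL1 (1.82, then 3.66 ± 0.36) took the same course. IVDS2-C replicate 2 read above replicate 1 at each of these 7 genes.

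Another set of genes was high in the centre. HAPLN1, which links hyaluronan to proteoglycans, was 6.42 higher in the centre than in ES cells and 1.67 higher than in the periphery, and it read -1.40 and -0.80 in IVDS3, against 1.90 and 1.44 in IVDS2-C (-2.77 ± 0.27). HAPLN1 was as high in unselected IVDS2 cells (2.27 and 2.37). The complement component C5 read -0.37 and -0.22 in IVDS3, against 2.03 and 2.29 in IVDS2-C (-2.45 ± 0.21). SLC7A11, the cystine importer, read -1.15 and -1.17 in IVDS3, against 1.13 and 1.12 in IVDS2-C (-2.28 ± 0.25). The centre arrays lay above every IVDS3 array at all 3 genes, as the choice of genes required. Genes of this course were picked as called higher in the centre than in ES cells and the periphery, and called lower in IVDS3. ANKRD1, a target of the YAP pathway (-2.18 ± 0.27), TDH, threonine dehydrogenase (-2.11 ± 0.22), and TIPARP, a target of the aryl hydrocarbon receptor (-1.96 ± 0.29), followed this pattern, as did IL6 and CXCL8.

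The reverse course was also seen. GALNT1, which starts mucin-type O-glycosylation, was lower in the centre than in ES cells (-1.5) and read 3.90 and 3.96 in IVDS3, against -0.77 and 0.77 in IVDS2-C (3.93 ± 0.44). ITM2A, a membrane protein, was far below ES cells in the centre (-4.45) and rose by 3.15 ± 0.34 at IVDS3. The glycosyltransferase MGAT4C (-2.68, then 3.14 ± 0.22) and IFITM1, which blocks entry of viruses (-2.42, then 2.50 ± 0.33), did likewise. Genes that stayed near ES levels in the centre and then fell included GLDC, LIX1, BMP4 and TMEM88, an inhibitor of WNT signalling (-2.62 ± 0.20). Those that fell in both steps included SALL4, SFRP2 and PIMREG, a gene of mitotic cells (-1.17, then -2.28 ± 0.23).

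**Figure D5:**
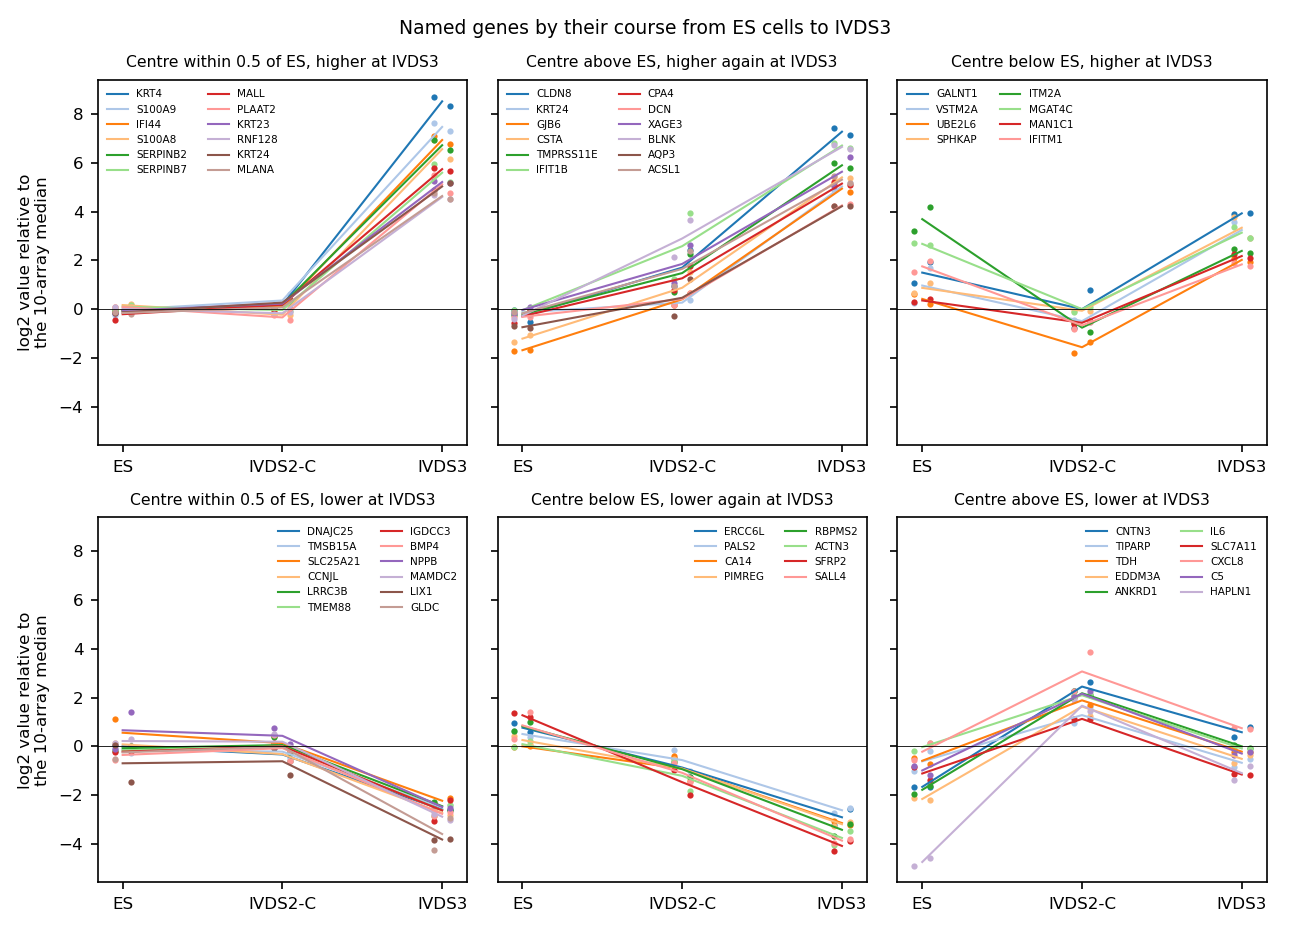
Values of the genes named for each course are plotted over ES cells, IVDS2-C and IVDS3, in log2 units relative to the 10-array median, with lines through group means and a point for each array. Of the groups shown, KRT4 and its panel stay near 0 until IVDS3, HAPLN1 and IL6 peak in IVDS2-C, and ITM2A is lowest in IVDS2-C. The genes of each panel were chosen by their course, so the shapes were set by the choice.

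Secreted proteins of the fetal liver differed little between IVDS3 and the centre. In that list 2 of 28 measured genes rose and 1 fell, with a median of 0.01, while 10.9% of all genes went each way. AFP, the main fetal serum protein, read -0.58 and -0.48 in IVDS3, against -0.19 and -0.14 in IVDS2-C, and was not called (-0.36 ± 0.12, adjusted p = 0.0628). SERPINA1, the antitrypsin of liver, read 0.09 and 0.22 in IVDS3, against 0.10 and 0.00 in IVDS2-C (0.11 ± 0.12, adjusted p = 0.6). The apolipoproteins APOB (-0.28 ± 0.15) and APOA1 (-0.43 ± 0.55) were not called, nor was FGB, a fibrinogen chain, whose IVDS3 arrays disagreed (-0.39 and 0.80, against 0.50 and 0.10 in IVDS2-C). AMBP, the precursor of a plasma protease inhibitor, rose by 1.15 ± 0.20 on the mean of 2 probe sets (-0.01 and 2.30). The complement factor CFB rose by 0.85 ± 0.22, a call lost without IVDS3 replicate 2 or IVDS2-C replicate 1. VTN, which encodes vitronectin, fell by 1.37 ± 0.26, a call lost without IVDS3 replicate 1. In such bulk samples fewer cells of a type and less RNA per cell cannot be told apart.

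Genes of hepatocyte metabolism gave 3 of 22 higher and 2 lower (median 0.25), counts near the 10.9% of all genes called each way. Not all of the falls kept their call when any 1 of the 4 arrays was left out. CYP3A4, the main drug-oxidising enzyme of adult liver and gut, read 3.84 and 3.70 in IVDS3, against -0.02 and 0.01 in IVDS2-C (3.78 ± 0.16, 13.7-fold, adjusted p = 1.26e-06). It was measured by 1 probe set, which could also read related CYP3A transcripts, and CYP3A5 was not called (0.22). ALDH3B2, an aldehyde dehydrogenase, rose by 1.93 ± 0.12. ASS1, an enzyme of the urea cycle, rose by 0.57 ± 0.15, a call lost without either IVDS3 array or without IVDS2-C replicate 1.

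Among 20 endoderm and liver transcription factors 3 rose and 4 fell (median -0.11), where 10.9% of all genes went each way. CEBPA, a factor of hepatocytes that also acts in fat cells and keratinocytes, read 2.89 and 2.75 in IVDS3, against 0.13 and -0.01 in IVDS2-C (2.76 ± 0.17, adjusted p = 1.26e-05). FOXA1, a pioneer factor of endoderm and of several epithelia, rose by 1.5 ± 0.23. The nuclear receptor NR1I3 rose by 0.53 ± 0.11, a call lost without either IVDS3 array or without IVDS2-C replicate 1. FOXA2 (-0.30 ± 0.12), GATA4 (-0.01 ± 0.14) and GATA6 (-0.99 ± 0.56), which mark early endoderm, were not called. FOXA3 fell by 1.20 ± 0.27, a call lost without either IVDS3 array. SOX17 fell by 1.03 ± 0.31 with an adjusted p of 0.0456, and that call held only without IVDS2-C replicate 2 or IVDS3 replicate 2. Leaving out IVDS3 replicate 1 left 0 factors called lower, IVDS3 replicate 2 or IVDS2-C replicate 1 left 1, and any IVDS2 or IVDS2-P array left 2, as did centring each array.

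Matrix genes of fibroblasts rose in part. Of 24 measured genes 11 rose and 2 fell (median 0.45), and both falls were lost without IVDS3 replicate 1 or IVDS2-C replicate 2. DCN, which encodes the proteoglycan decorin, read 4.22 and 4.30 in IVDS3, against 0.16 and 0.67 in IVDS2-C (3.84 ± 0.16), with 5 probe sets from 0.38 to 5.12. LUM, lumican, read 5.54 and 4.89 in IVDS3, against 1.87 and 2.23 in IVDS2-C (3.16 ± 0.21). TGFBI, a matrix protein that TGF-beta induces, read 4.57 and 4.82 in IVDS3, against 1.51 and 2.11 in IVDS2-C (2.89 ± 0.32). Of the 6 measured markers of fibroblasts, DCN, LUM, COL3A1 (0.89 ± 0.17) and COL1A2 (0.55 ± 0.16, adjusted p = 0.0407) rose, and COL1A1 and THY1 were not called. COL1A1, a chain of the main fibrillar collagen, read 0.02 and -0.29 in IVDS3, against -0.04 and -0.28 in IVDS2-C (0.03 ± 0.24). THY1, a surface protein of fibroblasts, had a difference of 0.23 ± 0.14, and the filament gene VIM one of -0.63 ± 0.29, also not called.

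The markers set for cell types gave a mean level for each array. For fibroblasts the mean of 6 measured genes was 2.04 and 1.87 in IVDS3, against 0.49 and 0.52 in IVDS2-C, with 4 higher and 0 lower. For stratified epithelium the mean of TP63, DSG3 and DSC3 was 3.09 and 3.11 in IVDS3, against 0.71 and 1.37 in IVDS2-C (2 of 3 higher). TP63 was not called, and DSG3 and DSC3 also stand in the desmosome list. KRT5 and KRT14 were set as markers too but were not measured. For trophoblast the mean of 4 genes was 1.64 and 1.68 in IVDS3, against 0.72 and 1.00 in IVDS2-C, with 2 higher and 0 lower. For pluripotent cells it was -2.11 and -2.05 in IVDS3, against -0.15 and -1.45 in IVDS2-C, with 0 of 4 higher and 2 lower. For hepatocytes, 1 of 7 markers, CYP3A4, was higher and 0 were lower. No blood marker (0 of 3) and no neuron marker (0 of 4) was called by limma, with 0 and 1 at an unadjusted p under 0.05. Of the endothelial markers 0 of 4 were higher and 1 was lower. LYZ, lysozyme, which myeloid and glandular cells make, rose by 3.35 ± 0.26, while PTPRC, the common leukocyte antigen, was not called (0.14). The part of co-culture fibroblasts or feeders in the rise of DCN and LUM was not tested.

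Trophoblast and amnion genes, a group that surface ectoderm shares in part, were divided. Of 23 measured genes 5 rose and 4 fell (median 0.10). The number that rose was 2 without either IVDS3 array or without IVDS2-C replicate 1, and the number that fell was 2 without IVDS3 replicate 1 or IVDS2-C replicate 2. ELF5, a factor of trophoblast and of glandular epithelium, read 3.61 and 3.41 in IVDS3, against 0.75 and 0.92 in IVDS2-C (2.68 ± 0.23). GABRP, a GABA receptor subunit, rose by 1.72 ± 0.23 after standing 6.47 higher in the centre than in ES cells. HAND1, a factor of trophoblast, amnion and heart, read 0.05 and -0.09 in IVDS3, against 1.87 and 0.84 in IVDS2-C (-1.37 ± 0.27). TEAD4, which starts the trophoblast lineage in the mouse, fell by 1.20 ± 0.15.

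Genes that change on the way from ES cells to stage 2 were picked by their difference between other groups, so the IVDS3 and centre means do not enter the choice. The spread estimated over all 10 arrays is shared by the comparisons, so a gene with a low spread is more readily called in each, and the shares are a description. Of the 858 genes called higher in unselected IVDS2 cells than in ES cells (6.50% of all genes), 16.8% rose and 21.9% fell between the centre and IVDS3, where 10.9% of all genes went each way. Their median difference was -0.09. Of the 822 genes called lower in IVDS2 (6.23%), 13.5% rose and 16.3% fell. Of the 833 genes called higher in IVDS2-P than in ES cells (6.31%), 10.9% rose and 24.2% fell, with a median of -0.16. Of the 616 genes called lower there (4.67%), 16.2% rose and 10.9% fell.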

How the data were processed

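RNA of 10 samples was measured on Affymetrix arrays. The authors deposited log2 values from RMA (version not given), per the submitters' processing notes, and base 2 was taken from the range of the values, at most 9.51 for a probe set. Before deposit every probe set was centred on the median of the 10 arrays (0 of 44294 medians lay beyond 1e-06), so neither a filter on dim probe sets nor a choice of the brightest was possible. The 84 control probe sets were left out. Of the 44210 others, 22802 had 1 gene in the platform annotation, 316 several and 21092 none. For 22507 of them a RefSeq gene number matched, with 0 names changed. Probe sets of a gene were averaged (13191 genes, 7438 with 1 probe set).

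All 10 arrays were fitted in limma 3.58.1 (R 4.3.3) with a term for each of the 5 groups, with 5 residual and 3.94 prior degrees of freedom. Tests are two-sided, adjusted by Benjamini-Hochberg over all genes or probe sets, and called at an adjusted p under 0.05. "Rose" and "fell" are used of called genes. On simulated data with 100 genes changed 2-fold and 100 changed 4-fold among 13191, the fit recovered 91% and 99%, with 5.94% of calls false. The simulated noise was independent between genes and few genes were changed. In the real data the centre arrays differed together over many genes and many more genes were called. These rates therefore do not carry over to the calls reported here.

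The comparison and the 44 gene lists (1007 genes, 710 measured) were chosen with earlier results of these data known. Named genes were the 12 largest rises and 12 largest falls (called, with groups that did not overlap), up to 4 called members of each list in each direction, up to 12 genes for each course against ES cells, and 22 measured landmark genes. Names made of LOC and a number were passed over. List members outside this rule, such as those given as not called, were chosen after their values were seen, as were the families in the closing section. Some genes stand in several lists. Alternatives were arrays centred on their medians, a fit to the 4 arrays alone, a block for the replicate number, a robust prior, the most variable probe set of a gene, genes with 1 probe set, and leaving out each array in turn.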

Additional observations from a re-analysis of the deposited data

How the results depend on the processing

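The number of called genes stayed within 1.5 times of 2883 with centred arrays (2810, with 1503 higher and 1307 lower), with only the 4 arrays (2974), with a robust prior (2880) and with the most variable probe set (2983). Genes with 1 probe set alone, a smaller table, gave 1426 calls (708 higher, 718 lower), 662 of them at least 2-fold (374 higher, 288 lower). The replicate numbers were not taken to pair the arrays, since the replicate differences of IVDS3 and IVDS2-C correlated at 0.07. Over the 10 pairs of groups the correlation ran from -0.12 to 0.25, with IVDS2, IVDS2-P and IVDS3 correlating with each other at 0.19 to 0.25, and what a number shares was not tested. With a replicate block 2995 genes and 7075 probe sets were called. Leaving out 1 array gave 1473 to 3323 genes (835 to 1603 higher, 635 to 1720 lower), 884 to 1318 of them at least 2-fold (544 to 735 higher, 340 to 583 lower), and 3107 to 7860 probe sets (1863 to 3958 higher, 1244 to 3902 lower). For genes called higher in IVDS2 than in ES cells, the share that rose was then 9.18% to 17.7%, the share that fell 14.3% to 29.4%, and the median -0.19 to -0.059. That median was -0.066 with centred arrays and -0.18 with 1 probe set a gene. For genes called lower in IVDS2 these were 8.26% to 18.3%, 6.54% to 20.0% and -0.14 to -0.027. For genes called higher in IVDS2-P they were 5.99% to 14.5%, 14.8% to 34.1% and -0.32 to -0.083, and the median was -0.14 with centred arrays, -0.15 with the most variable probe set and -0.18 with 1 probe set. For genes called lower in IVDS2-P they were 10.8% to 19.7%, 3.92% to 15.2% and -0.043 to 0.011. The cause of these shifts was not tested. Of 258 named genes 243 were called, 164 of them kept the call whichever array was left out, and all 243 kept their direction. Small differences are limited by the 2 arrays a group, and signal over background cannot be judged from centred values.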

Other observations

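Further gene families were picked after their values were seen. Their counts are to be read beside the 10.9% of all genes that rose and the 10.9% that fell. S100A4, S100A8, S100A9, SOX10, KIF2C and KIF23 also stand in lists of the report and are counted again here. Pigment cell genes had 9 of 13 measured members higher, 0 lower and a median of 0.73. TYRP1, an enzyme of melanin synthesis, read 4.38 and 4.06 in IVDS3, against -0.13 and 0.05 in IVDS2-C (4.26 ± 0.13, adjusted p = 2.25e-07), and the melanocyte channel TRPM1 read 3.99 and 3.69 in IVDS3, against 0.02 and -0.19 in IVDS2-C (3.92 ± 0.15). Tyrosinase, TYR, rose by 2.72 ± 0.14 and GPNMB, a melanosome glycoprotein, by 2.88 ± 0.17, the latter with 2 probe sets at 0.59 and 5.17. MITF, the master regulator of pigment cells, rose by 1.05 ± 0.20, with 2 probe sets at -0.09 and 2.19. SOX10 rose by 0.54 ± 0.13, with 2 probe sets at 0.13 and 0.95. The 4 members not called were RAB27A (0.30), GPR143 (0.15), OCA2 (-0.23) and KIT (-0.68 ± 0.33). KIT read -0.52 and -0.72 in IVDS3, against 0.68 and -0.55 in IVDS2-C.

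Protease inhibitors of the ovalbumin-like serpin family were higher in 6 of 7 measured members, with a median of 2.79, among them SERPINB13 (2.91 ± 0.23) and SERPINB5 (2.79 ± 0.15), both products of keratinocytes. The 4 probe sets of SERPINB13 ranged from 0.68 to 4.38, and the 2 of SERPINB5 stood at 0.78 and 4.81. S100 calcium-binding proteins were higher in 9 of 13 (median 1.29), including S100A6 (3.03 ± 0.18), S100A14 (2.21 ± 0.17, 2 probe sets at 0.24 and 4.19) and S100A2 (1.29 ± 0.11). Of 13 connexins, GJB6 and GJB5 (3.02 ± 0.21), both of stratified epithelium, rose and GJC1 fell. The other connexins were not called, and the counts of this family lie near the shares of all genes. In the PARP family 6 of 12 rose and 1 fell. PARP9, an interferon-induced member, read 3.37 and 3.40 in IVDS3, against 0.18 and 1.70 in IVDS2-C (2.44 ± 0.45), while PARP1, which acts in DNA repair, fell by 0.93 ± 0.16. The butyrophilin BTN3A3, which takes part in recognition by gamma delta T cells, rose by 3.03 ± 0.20, and the other 3 measured butyrophilins were not called. Of 29 kinesins 9 fell and 0 rose, and KIF2C (-1.90 ± 0.26) and KIF18A (-1.89 ± 0.35), motors of the mitotic spindle, led the falls.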
